A study of Mus musculus with 4 samples.

Results

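The 10 genes described here encode ligands, a latency protein, receptors and a matrix target of the transforming growth factor beta (TGF-beta) and activin pathway: Tgfb1, Tgfb2, Tgfb3, Inhba, Inhbb, Ltbp1, Tgfbr1, Tgfbr2, Tgfbr3 and Tgfbi. They were chosen by name, as the non-control array probes that the scanner files assign to these genes. They have 16 of the 39429 probes on the array. All 16 were among the 25591 probes kept as bright enough, so all 10 genes stood among the 19365 genes tested.

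The tissue was the ureter of NMRI mouse embryos, taken at the stage E14.5 (E counts embryonic days). The mutants, called cDKO (conditional double knockout) here, were Tbx18(cre/+) and carried only floxed alleles of both targeted genes, Fgfr1(fl/fl) and Fgfr2(fl/fl). The controls were given as Fgfr1(fl/?);Fgfr2(fl/?), so they carried floxed alleles too, their second alleles are not stated, and no cre allele is listed for them. Tbx18 is active in the mesenchyme around the ureter, so cre from this locus acts there and not in the urothelium. Of the mutants' Tbx18 alleles, 1 carries cre, and the controls' labels name no Tbx18 allele. Each of the 4 two-colour Agilent arrays held a cDKO extract in 1 channel and a control extract of the same sex label in the other, and is called a replicate. The cDKO extract was labelled with Cy5 on replicates 1 and 3 and with Cy3 on replicates 2 and 4. Replicates 1 and 2 lay on slide 1, and replicates 3 and 4 on slide 2. The sex label was female on replicates 1 and 4 and male on replicates 2 and 3. Which or how many embryos went into an extract is not stated, so p-values reflect only how much these 4 pairs of extracts differed.

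TGF-beta is secreted in a latent complex, in which its propeptide holds it inactive and a latent TGF-beta binding protein such as LTBP1 ties it to the matrix. Once freed, it binds TGFBR2, which recruits and phosphorylates TGFBR1, and TGFBR1 in turn activates SMAD2 and SMAD3. TGFBR3 (betaglycan) presents ligand, TGF-beta2 above all. Activins are dimers of the INHBA and INHBB subunits and signal to the same SMAD proteins through receptors of their own. TGF-beta signalling is widely known for promoting extracellular matrix and smooth muscle genes in mesenchyme.

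The ligand genes are related in sequence, so the probes were compared with each other first. Among 111 pairs of probes for different members, no pair shared a run of 15 or more bases, and the longest shared run was 9 bases. That run belonged to the ligand pair Inhba and Inhbb. By the share of identical bases, the most alike ligand pair that the results draw on was Tgfb1 and Tgfb2. This pair is shown because both probes cover the same conserved stretch of the mature ligand. The Tgfb1 probe lies at chr7:26489877-26489936 (mm9, plus strand) and the Tgfb2 probe at chr1:188449333-188449392 (mm9, minus strand). Both are written 5′ to 3′ in the sense of the transcript, and capitals mark the bases that are identical when the probes are aligned without gaps.
Tgfb1: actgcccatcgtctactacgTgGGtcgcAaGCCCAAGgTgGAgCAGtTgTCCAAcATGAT
Tgfb2: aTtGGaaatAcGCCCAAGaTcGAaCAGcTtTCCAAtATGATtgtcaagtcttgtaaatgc
Of 41 aligned bases 28 were identical (68.3%), with a longest shared run of 7.

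In the cDKO ureters no member passed the test. Tgfb3 had a mean 1.28-fold the control's, Tgfbr1 1.22-fold and Ltbp1 1.30-fold, and the other members lay between 0.888-fold (Inhbb) and 1.10-fold (Tgfb2 and Inhba). Ratios are given as log2 of cDKO over control, fitted with limma over n = 4 arrays with a term for the dye, with the standard error (SE) of the fit. A gene was called at a Benjamini-Hochberg adjusted p under 0.05 over all 19365 genes. By that rule 0 of 10 members were called in this limma fit, against 0.852% of all genes. At an unadjusted p under 0.05 there were 3 of 10 members (Tgfb3, Tgfbr1 and Ltbp1), against 19.6% of all genes, a share that is near the background. The ratio had the same sign on all 4 arrays for 2 of 10 members (Tgfb3 and Tgfbr1), against 25.2% of all genes. Both were above 0, against 13.4% of all genes. Of the 10 estimates 6 lay above 0 and 4 below, with a median of 0.08, beside a median of 0.009 over all genes tested. Of all 19365 genes, 10196 lay above 0.

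**Figure D1:**
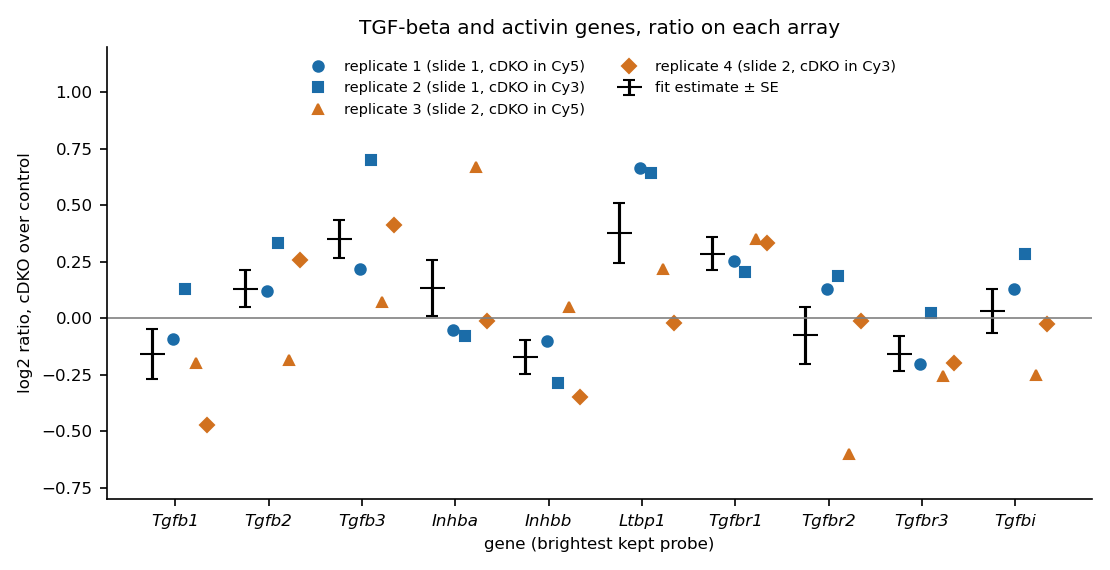
The log2 ratio of cDKO over control (vertical axis) on each of the 4 arrays for the 10 genes, from the brightest kept probe, with the fitted estimate and its SE as a black bar. The points of Tgfb3 and Tgfbr1 lie above 0 on every array, and Ltbp1 is high on both arrays of slide 1 only. Inhba has 1 array (replicate 3) far from the other 3, and replicate 3 is the lowest array of Tgfbr2.

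The estimates of the TGF-beta ligands had different signs, and a difference between ligands was not tested. Tgfb3, which acts in palate and lung development, had ratios of 0.22, 0.70, 0.07 and 0.41 on replicates 1 to 4. Its level, the log2 intensity of a channel after scaling between arrays, was 14.28, 14.61, 14.62 and 14.62 in cDKO ureters, against 14.06, 13.91, 14.54 and 14.21 in control ureters. Every array was higher in cDKO, but the groups overlapped, since replicate 1 of cDKO lay below replicate 3 of the control. The estimate was 0.35 ± 0.08 (adjusted p = 0.108, limma), with a 95% interval of 0.15 to 0.55, or 1.11 to 1.47-fold. The 2 arrays with cDKO in Cy3 (replicates 2 and 4) gave the higher ratios. The dye term was -0.20 (unadjusted p = 0.0466, adjusted p = 0.56, limma), and the genotype estimate was fitted beside it. The Tgfb3 probe lies at chromosome 12, 87397804 to 87397863 (mm9, minus strand).

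Tgfb2, a ligand needed in kidney and urinary tract development, has 2 probes. The brighter gave ratios of 0.12, 0.33, -0.18 and 0.26. Its level averaged 13.79 ± 0.23 in cDKO ureters and 13.65 ± 0.35 in control ureters (SD, n = 4 each), and the groups overlapped. The estimate was 0.13 ± 0.08 (adjusted p = 0.431, limma), with a 95% interval of -0.07 to 0.33. It was 0.056 without replicate 1 and 0.21 without replicate 3. Every fit that leaves out 1 array keeps the dye term. Such a fit gives the array left alone with its dye more weight than the others. Its value therefore does not show the influence of the omitted array alone. The second probe (chromosome 1, 188447534 to 188447593) gave 0.41, 0.43, 0.03 and 0.08, so it was above 0 on all 4 arrays and highest on slide 1. Its levels were 12.73, 12.71, 12.44 and 12.54 in cDKO ureters, against 12.32, 12.29, 12.41 and 12.47 in control ureters, and its estimate was 0.24 ± 0.10 (adjusted p over probes = 0.272, limma).

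Tgfb1, a ligand made by many cell types, blood and vessel cells among them, had ratios of -0.09, 0.13, -0.20 and -0.47. Its levels were 8.75, 8.78, 9.12 and 8.87 in cDKO ureters, against 8.84, 8.66, 9.32 and 9.35 in control ureters. The groups overlapped, and replicate 2 went the other way from the other 3. The estimate was -0.16 ± 0.11 (adjusted p = 0.475, limma), with a 95% interval of -0.42 to 0.11. Replicate 4 had the lowest ratio. Without that array the estimate was -0.01, and without replicate 2 it was -0.31. Both of these fits keep the dye term and give the remaining array with cDKO in Cy3 more weight. In bulk tissue such as this, fewer cells of a type and less RNA per cell cannot be told apart. Of 8 macrophage and leukocyte markers 1 fell, Fcer1g, and 7 lay below 0. Their summed level was 13.80 to 14.10 in cDKO ureters and 14.19 to 14.43 in control ureters. Of 8 endothelial markers 1 fell, Emcn, and 6 lay below 0, with a summed level of 14.37 to 14.69 in cDKO ureters and 14.48 to 15.14 in control ureters. Of 5 erythroid markers 2 fell, Hba-x and Hbb-bh1, and all 5 lay below 0, with a summed level of 17.22 to 17.59 in cDKO ureters and 17.63 to 17.83 in control ureters. Of 4 mesothelial markers 3 were bright enough to test. Of these 1 fell, Msln, and all 3 lay below 0, with a summed level of 10.54 to 11.04 in cDKO ureters and 11.40 to 11.60 in control ureters. The marker left out, Lrrn4, was well above background on 2 cDKO arrays and 0 control arrays. The summed levels of the macrophage, erythroid and mesothelial markers did not overlap between the groups. A summed level mostly follows the brightest genes of its list. These were Hbb-y (17.18 in cDKO ureters) for the erythroid and Msln (10.50) for the mesothelial markers, so these 2 sums are close to readings of single genes. Of all genes tested, 8.04% had levels without overlap and 0.852% were called. The part of these cell types in the Tgfb1 value was not tested.

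The estimates of the activin subunits had opposite signs, and neither was called. Inhba encodes the subunit of activin A, and its probe lies at chromosome 13, 16118634 to 16118693 (mm9, plus strand). Its ratios were -0.05, -0.08, 0.67 and -0.01, with levels of 10.29, 10.19, 10.86 and 10.50 in cDKO ureters, against 10.34, 10.26, 10.19 and 10.51 in control ureters. Only replicate 3 stood above 0, with the highest of the 4 cDKO levels and the lowest of the 4 control levels. The estimate was 0.13 ± 0.12 (adjusted p = 0.602, limma), with a 95% interval of -0.16 to 0.43, and it was -0.05 without replicate 3 and 0.31 without replicate 1. The fit without replicate 1 keeps its dye term and so gives replicate 3 more weight than the other arrays. On the same array the median ratio of 10 immediate early genes, a list chosen after the data were seen, was 1.04. That median was -0.30, -0.19 and 0.27 on replicates 1, 2 and 4, and its part in the Inhba value was not tested.

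Inhbb, the subunit of activin B (chromosome 1, 121312160 to 121312219, minus strand), had ratios of -0.10, -0.29, 0.05 and -0.35. Its levels were 8.12, 8.19, 8.13 and 7.88 in cDKO ureters, against 8.22, 8.47, 8.08 and 8.23 in control ureters, so the groups overlapped and replicate 3 was the only array above 0. The estimate was -0.17 ± 0.07 (adjusted p = 0.268, limma), with a 95% interval of -0.35 to 0.01.

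Ltbp1, the binding protein that ties latent TGF-beta to the matrix, had the largest estimate of the 10 members and the clearest split by slide. Its ratios were 0.67, 0.64, 0.22 and -0.02. The levels were 13.89, 13.82, 13.85 and 13.81 in cDKO ureters, against 13.22, 13.18, 13.63 and 13.84 in control ureters. The 4 cDKO values lay close together, while the control values were low on slide 1 and reached the cDKO level on replicate 4, where the groups overlapped. The estimate was 0.38 ± 0.13 (adjusted p = 0.197, limma), with a 95% interval of 0.06 to 0.69, or 1.04 to 1.62-fold. The mean ratio was 0.65 on slide 1 and 0.10 on slide 2, a difference of 0.56 with an adjusted p of 0.151 (limma). Within slide 1 alone the limma fit called Ltbp1, at an adjusted p of 0.0412, among 551 of all 19365 genes. That fit rests on replicates 1 and 2 only, has no dye term and leaves 1 residual degree of freedom. Leaving out replicate 2 gave 0.21. The probe lies at chromosome 17, 75790530 to 75790589 (mm9, plus strand). A second, dimmer Ltbp1 probe at 75446945 to 75447004 of that chromosome gave 0.06, 0.05, -0.00 and 0.12, an estimate of 0.06 ± 0.07 (adjusted p over probes = 0.722, limma). The 2 probes therefore disagreed on slide 1, and which transcripts each one reads is not annotated in the sources used here. The mean over both was 0.22.

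**Figure D2:**
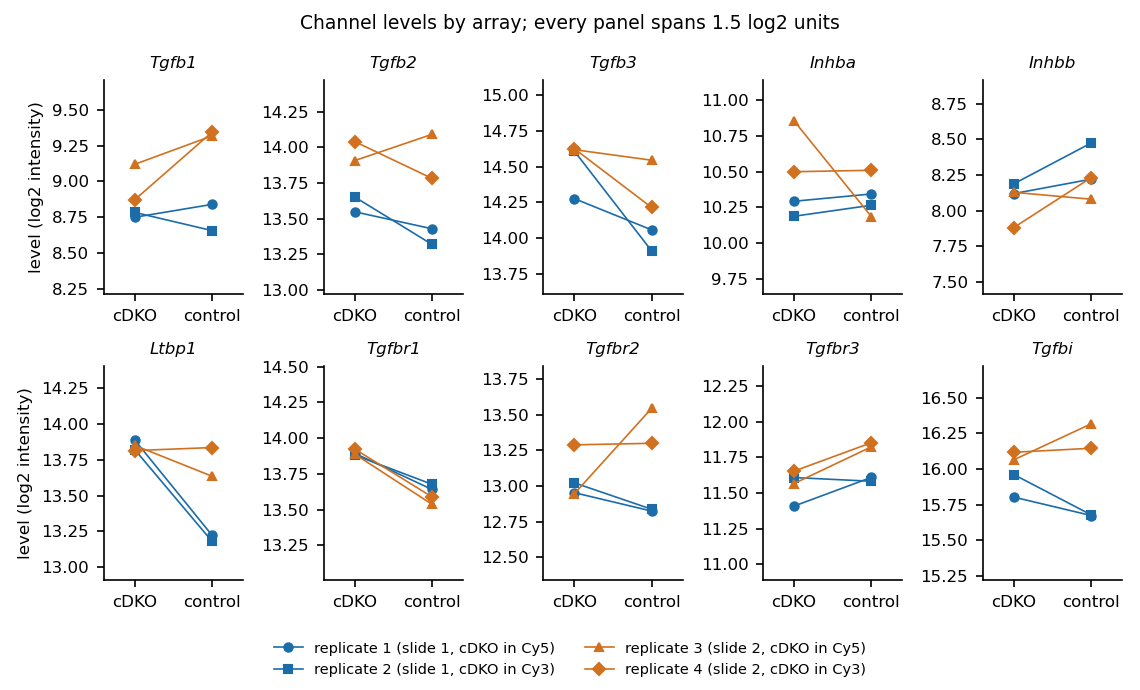
Level of each gene in the cDKO and the control channel of the 4 arrays (vertical axis, log2 intensity after quantile scaling), with a line joining the 2 channels of an array. Every panel spans the same range on the log2 scale. The lines of Tgfbr1 all slope down to the control without overlap, the control values of Ltbp1 spread from 13.18 to 13.84 while its cDKO values stay within 13.81 to 13.89, and Inhba has 1 high cDKO value.

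The estimates of the receptor genes also had different signs, and a difference between them was not tested. Tgfbr1, the type I receptor kinase, had ratios of 0.25, 0.21, 0.35 and 0.33 at its brightest probe (chromosome 4, 47427736 to 47427795, mm9, plus strand). Its levels were 13.89, 13.88, 13.89 and 13.92 in cDKO ureters, against 13.64, 13.68, 13.54 and 13.59 in control ureters. All 4 cDKO values lay above all 4 control values. It was the only member without overlap, 1 of 10, against 8.04% of all genes. The estimate was 0.29 ± 0.07 (adjusted p = 0.121, limma), with a 95% interval of 0.11 to 0.46, or 1.08 to 1.38-fold. The slide means were 0.23 and 0.34.

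Tgfbr1 has 3 further probes on that chromosome and strand, all dimmer. The probe at 47424946 to 47425005 gave 0.18, 0.71, 0.11 and 0.15, an estimate of 0.29 ± 0.10 (adjusted p over probes = 0.218, limma), with replicate 2 far above the other arrays. The probe at 47395833 to 47395892 gave -0.09, -0.10, 0.14 and 0.44, an estimate of 0.10 ± 0.11 (adjusted p over probes = 0.671, limma). The probe at 47374114 to 47374173 gave 0.06, 0.03, 0.27 and 0.05, an estimate of 0.10 ± 0.08 (adjusted p over probes = 0.499, limma). It was well above background on 4 cDKO and 2 control arrays, so it was kept through its cDKO channel alone and its sign says nothing about agreement between probes.

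**Figure D3:**
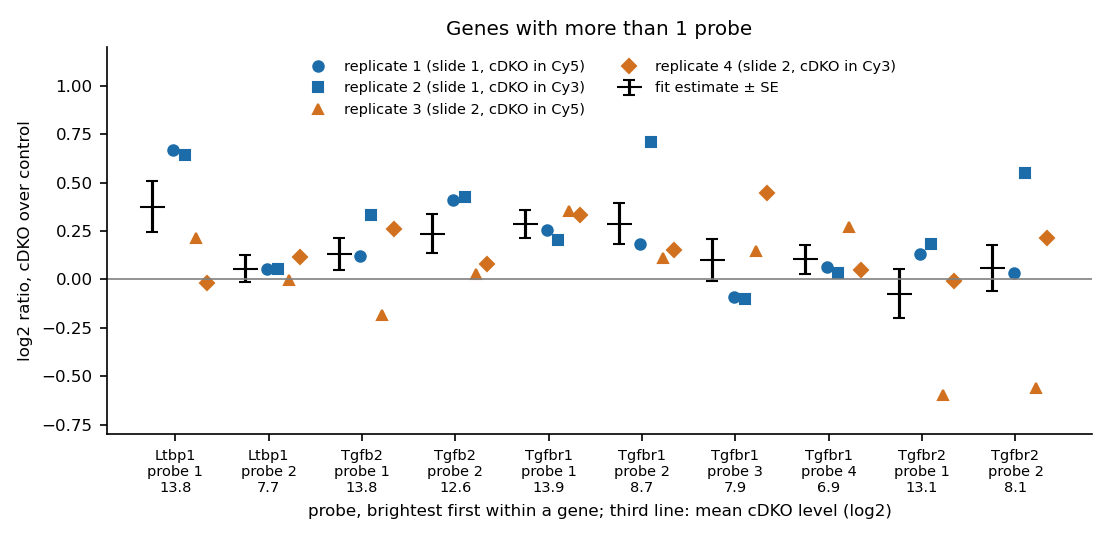
Log2 ratio of cDKO over control (vertical axis) on each array for the probes of the 4 genes that have more than 1 probe, brightest first, with the fitted estimate and its SE. The 2 Ltbp1 probes differ on slide 1 (0.67 and 0.64 beside 0.06 and 0.05), and both Tgfbr2 probes are lowest on replicate 3.

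Tgfbr2, the type II receptor kinase that binds the ligand first, had ratios of 0.13, 0.18, -0.60 and -0.01 (chromosome 9, 115997155 to 115997214, mm9, minus strand). Its levels were 12.95, 13.02, 12.95 and 13.29 in cDKO ureters, against 12.82, 12.84, 13.54 and 13.30 in control ureters. The low ratio of replicate 3 came with a control value higher than the other 3. The estimate was -0.07 ± 0.13 (adjusted p = 0.798, limma), with a 95% interval of -0.38 to 0.23, and it was 0.11 without replicate 3 and -0.26 without replicate 1. The second probe (115999496 to 115999555) gave 0.03, 0.55, -0.56 and 0.21, again lowest on replicate 3, with an estimate of 0.06 ± 0.12 (adjusted p over probes = 0.84, limma).

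Tgfbr3, the co-receptor betaglycan (chromosome 5, 107535818 to 107535877, mm9, minus strand), had ratios of -0.20, 0.03, -0.26 and -0.20. Its levels were 11.41, 11.61, 11.57 and 11.65 in cDKO ureters, against 11.61, 11.58, 11.82 and 11.85 in control ureters. The groups overlapped, and replicate 2 was the only array not below 0. The estimate was -0.16 ± 0.08 (adjusted p = 0.319, limma), with a 95% interval of -0.34 to 0.03, and without replicate 4 it was -0.10.

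Tgfbi, a secreted matrix protein named for its induction by TGF-beta, had ratios of 0.13, 0.28, -0.25 and -0.03 (chromosome 13, 56740460 to 56740519, mm9, plus strand). The levels were 15.80, 15.96, 16.06 and 16.12 in cDKO ureters, against 15.67, 15.68, 16.32 and 16.14 in control ureters. Slide 1 was above 0 and slide 2 below. The estimate was 0.03 ± 0.10 (adjusted p = 0.891, limma), or 1.02-fold, with a 95% interval of -0.20 to 0.27. It lay between -0.062 (without replicate 1) and 0.13 (without replicate 3) when 1 array was left out.

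Several of these values differed between the slides. The arrays of slide 1 and of slide 2 also differ in their scan and in the extracts they hold, so slide, scan and extracts cannot be told apart. The mean ratio was higher on slide 1 than on slide 2 for 7 of 10 members, and the median over the members was 0.18 on slide 1 and -0.05 on slide 2. The difference between slides had an unadjusted p under 0.05 for Ltbp1 (0.0043), Tgfbi (0.0377) and Tgfbr2 (0.0231) in limma. Of all 19365 genes, 2767 had a slide difference at that threshold. After adjustment the slide difference was called for 0 of 10 members, against 0.893% of all genes. With a slide term in the limma fit, 3 of 10 members were called, against 12.5% of all genes. These were Tgfb3 (adjusted p = 0.0169), Tgfbr1 (adjusted p = 0.0329) and Ltbp1 (adjusted p = 0.014). That limma fit no longer counts differences between slides as error and leaves 1 residual degree of freedom among arrays. The difference between sex labels was called for none of the 19365 genes in limma (207 at an unadjusted p under 0.05), and its lowest unadjusted p among the members was 0.225. Its sign pattern over the arrays is that of a dye bias differing between slides, so the 2 cannot be told apart.

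**Figure D4:**
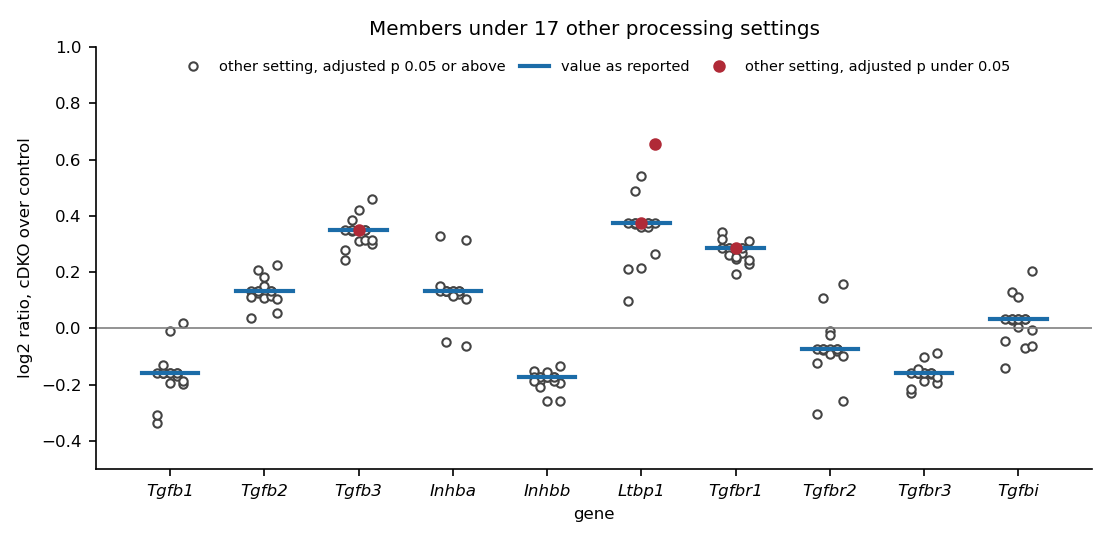
Log2 ratio of cDKO over control (vertical axis) of the 10 genes as reported (blue bar) and under 17 other processing settings (points), with filled points where the adjusted p was under 0.05. Tgfb2, Tgfb3, Tgfbr1 and Ltbp1 stay above 0 and Inhbb and Tgfbr3 below 0 under every setting, and filled points occur for Tgfb3, Tgfbr1 and Ltbp1 only. Settings that change only the dye, slide or sex term, the filter or the prior return the reported estimate, so their signs could not differ.

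The other genes of the pathway were taken from lists by known role, of which no gene passed the test (0 in each list, against 0.852% of all genes). Beside the counts of signs below, 10196 of all 19365 genes lay above 0, and no list was tested as a set. Of the activin receptors and inhibitors 6 of 7 were bright enough to test, and all 6 estimates lay above 0, with a median of 0.24. Acvr2b, a type II activin receptor, had ratios of 0.49, 0.40, 0.08 and 0.45 (0.36 ± 0.09, adjusted p = 0.119, limma). Fst encodes follistatin, which binds and blocks activin. Its ratios were 0.68, 0.54, 0.04 and 0.41 (0.42 ± 0.11, adjusted p = 0.137, limma). Replicate 3 was the lowest array for both. Acvr1c was not bright enough to test.

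Of the latency and activation genes 9 of 10 were tested, 6 above 0 and 3 below, with a median of 0.11. Nrros, which holds latent TGF-beta1 on macrophages and microglia, had ratios of -0.49, -0.61, -0.38 and -0.42 (-0.47 ± 0.08, adjusted p = 0.053, limma), below 0 on every array. Beside it stand the macrophage markers, of which 1 of 8 fell (Fcer1g) and 7 lay below 0, with a median of -0.38 and the summed levels given above. Their part in the Nrros value was not tested. Thbs1 encodes thrombospondin-1, which can release active TGF-beta from the latent complex. Its ratios were 0.65, 0.53, 0.28 and 0.58 (0.51 ± 0.09, adjusted p = 0.062, limma). Of the co-receptors and decoys only Eng (endoglin), a co-receptor of endothelial cells, was tested, at -0.10 ± 0.11 (adjusted p = 0.669, limma). Bambi was not well above background on any array.

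All 10 SMAD proteins and regulators were tested, 9 above 0 and 1 below, with a median of 0.18. Smad7, the inhibitory SMAD that TGF-beta itself induces, had ratios of 0.68, 0.01, 0.53 and 0.41 (0.41 ± 0.09, adjusted p = 0.0999, limma). Smad3, a signal-carrying SMAD, had ratios of 0.43, 0.42, 0.05 and 0.14 (0.26 ± 0.10, adjusted p = 0.214, limma). Smad3 was higher on slide 1, while Smad7 was near 0 on replicate 2 only.

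Of 12 genes that TGF-beta induces in many cells, 9 lay above 0 and 3 below, with a median of 0.20. Postn, the matrix protein periostin, had ratios of -0.33, -0.41, -0.49 and -0.47 (-0.42 ± 0.07, adjusted p = 0.063, limma), below 0 on every array. Fn1, fibronectin, had ratios of 1.00, 0.75, 0.06 and 0.60 (0.60 ± 0.15, adjusted p = 0.113, limma), so these matrix genes had opposite signs. Pmepa1, a feedback inhibitor of SMAD signalling that was picked after its values were seen, had ratios of 1.25, 1.37, 0.02 and 0.06. Its limma estimate was 0.67 ± 0.26 (adjusted p = 0.225). Its slide means were 1.31 and 0.04, and the difference of 1.27 passed the test of the slide difference (adjusted p = 0.00688, limma).

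**Figure D5:**
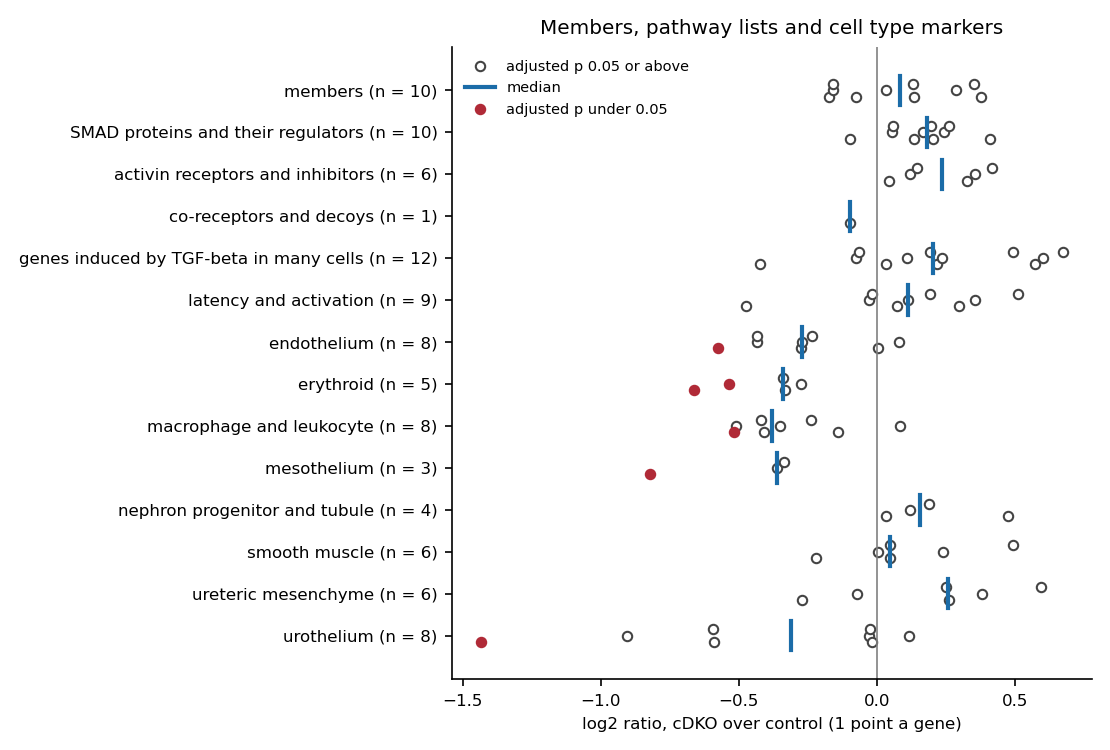
Log2 ratio of cDKO over control (horizontal axis, 1 point a gene) for the 10 members, the 5 pathway lists and the 8 cell type marker lists, with the median of each as a blue line and called genes filled. No member or pathway gene is filled, and the medians of the endothelial, erythroid, macrophage, mesothelial and urothelial markers lie below -0.25.

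The genes whose 4 ratios lay closest to those of Tgfb3, the member with the smallest p, were Kmt2b, Arhgef10l and Micall1. Their Euclidean distances over 4 arrays were 0.0694, 0.0806 and 0.096 on the log2 scale. Kmt2b, for one, had ratios of 0.19, 0.68, 0.11 and 0.36.

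Facts of the whole series bear on these values. Median spot signals ran between 138.7 and 383.4 for cDKO and between 169 and 417.3 for control extracts, and no spot was saturated. Correlations of the ratios between arrays, over genes, ran between 0.00559 (replicates 2 and 3) and 0.507 (replicates 1 and 2). The standard deviation of the ratio over the spots of a member's probe on 1 array had a median of 0.06 and a highest value of 0.15. Of the targeted genes, Fgfr1 stood at -0.40 ± 0.10 (adjusted p = 0.117, limma) and Fgfr2 rose, at 0.59 ± 0.07 (adjusted p = 0.0356, limma). Where the floxed parts lie is not stated in the labels, so these probes do not check the genotype. All 6 ureteric mesenchyme, 6 smooth muscle and 8 urothelial markers were bright enough to test, as the tissue label implies. Of the mesenchyme markers 4 lay above 0 and 2 below (median 0.26), and of the smooth muscle markers 5 above and 1 below (median 0.05). None of these was called. Of the urothelial markers 1 lay above 0 and 7 below (median -0.31), and 1, Upk1b, fell (-1.43). The part of these cell types in the values of Tgfb3, Tgfbr1 and Ltbp1 was not tested.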

How the data were processed

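The 4 arrays, with 2 colours each, compared cDKO with control ureters. Per the file headers, the scanner output came from Agilent Feature Extraction 10.7.3.1 and uses mm9 positions. For each channel the deposited files hold the mean intensity of a spot, its local background intensity and a processed intensity, and they add a log10 ratio (red over green). A further deposited table, with values the authors computed, holds a score per probe, a signed fold; how it was centred is not stated. Set against the scanner's log ratio, its columns correlated at 0.839 (replicate 1), -0.863 (replicate 2), 0.838 (replicate 3) and -0.843 (replicate 4). Given the dyes, a positive value therefore means higher in cDKO. Per the labels, 150 ng of total RNA was amplified and labelled.

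Intensities were corrected with normexp (offset 50), ratios were normalized within arrays by loess (span 0.3), and the spots of a probe were averaged, without control and outlier spots. Channel levels were quantile scaled. Kept probes (64.9%) had at least 3 of 4 spots marked as well above background in every cDKO channel or in every control channel. A gene was read from its brightest kept probe. Ratios were fitted with limma 3.58.1 in R 4.3.3 (lmFit, eBayes) with a dye term, two-sided. There were 2 residual and 4.53 prior degrees of freedom, and the number of arrays limits the precision. The 95% intervals are not adjusted for the number of genes. The fit was also run on simulated data with independent errors, no slide effect and larger changes than the members showed, so that run does not check the member values.

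The members and lists were chosen with earlier results of these data known. All members are named, and of each pathway list the called genes or, with none called, the 2 with the smallest p. The alternatives were another background, normalization, filter, centring, model, probe rule or input table, and each array left out.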

Additional observations from a re-analysis of the deposited data

Results flagged for a closer look

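In sets of 4 values, a single array stood far from the other 3 for 5 of the 48 sets tested (3 of 16 sets of ratios and 2 of 32 sets of levels). Chance alone marks about 1 in 20 such sets, and the sets are not independent. The cDKO level of Tgfb3 was low on replicate 1, at 14.27. The log2 ratio of Inhba was high on replicate 3, at 0.67, which is the array that sets the sign of its estimate. For Tgfbr1, the probe at chromosome 4, 47374114 to 47374173, had a high ratio of 0.27 on replicate 3. The Tgfbr1 probe at 47424946 to 47425005 had a high ratio of 0.71 on replicate 2, through a low control level of 7.96 on that array. The brightest Tgfbr1 probe had no array so far from the others.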

How the results depend on the processing

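Of the member estimates under 17 other settings 156 kept their direction and side of the threshold, 10 changed sign and 4 passed the threshold. Settings that changed only the dye, slide or sex term, the filter or the prior returned the reported estimate for every member. Under those settings the direction could not change, and only the adjusted p could. The count of called genes, 165 as reported, was 258 without a dye term, 2418 with a slide term, 2 with a sex term, 551 within slide 1, 0 within slide 2 (limma; 1346 at an unadjusted p under 0.05), 255 with median centring, 1 without a filter, and 380 with a trended robust prior. Leaving out 1 array gave 34 to 403. Members called numbered 3 with a slide term and 1 within slide 1, and 0 under the other settings. Within slide 1, Tgfb1 was 0.019, Tgfbr2 0.16 and Inhba -0.064. Tgfbi was -0.14 within slide 2, -0.071 with median centring and -0.0061 from the authors' deposited table. Leaving out 1 array gave -0.26 to 0.11 for Tgfbr2 (above 0 without replicate 3), -0.047 to 0.31 for Inhba (below 0 without replicate 3) and -0.062 to 0.13 for Tgfbi (below 0 without replicate 1 or 2). Ltbp1 was 0.10 within slide 2. The cause was not tested. The fits within a slide use fewer arrays and no dye term. Those that leave out 1 array keep the dye term and give the array left alone with its dye more weight. Each array pairs a cDKO with a control extract, so the pairing is in every fit.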
